A study of Mus musculus with 6 samples.

Results

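The collapsin response mediator proteins (CRMPs) are 5 cytosolic phosphoproteins encoded by Crmp1, Dpysl2, Dpysl3, Dpysl4 and Dpysl5, and all 5 of these symbols were found among the 55487 rows of the expression table. Each of the 5 passed the filter of a mean of at least 10 normalized reads, as did 18227 rows in all. The cells came from the adult mouse subventricular zone, the stem cell niche beside the lateral ventricles, in mice first treated at an age of 6 to 10 weeks and of mixed C57BL/6;Sv/129;FVB/N background. All mice carried NestinCreERT2, a tamoxifen-inducible Cre under the Nestin promoter, and the R26;EYFP reporter, and all were given tamoxifen at 200 mg/kg per day for 5 days. The tissue was dissected 10 days after the last gavage, and fluorescent cells were sorted from several mice pooled per library. The heterozygous group was E2F1(+/-);E2F3(F/+) and the knockout group E2F1(-/-);E2F3(F/F), with 3 libraries each, named A, B and C as in the labels. E2F1 and E2F3 are transcription factors that drive entry into the cell cycle, and the series concerns the part of such activator E2Fs in quiescent and activated states of adult neural stem cells. The reporter stays on in the descendants of a recombined cell, so a library holds stem cells together with their progeny.

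CRMPs take their name from the growth cone collapse that semaphorin 3A triggers. The ligand binds neuropilin and plexin receptors, kinases such as Cdk5 and GSK3 then phosphorylate the CRMPs, and phosphorylation loosens their hold on tubulin and other partners. They resemble the pyrimidine-degrading enzyme dihydropyrimidinase, hence the gene symbols, but lack its catalytic activity. In the adult subventricular zone the family is known from newborn neurons, the neuroblasts that migrate to the olfactory bulb, and Dpysl3 protein is used as a marker of young neurons.

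Of the 5 genes, 3 fell in knockout cells: Crmp1 by 9.55-fold, Dpysl3 by 6.10-fold and Dpysl5 by 5.82-fold (limma, adjusted p under 0.05), against 8.59% of all tested genes that fell. Dpysl2 and Dpysl4 had smaller differences and did not pass the test, and no member rose (7.23% of tested genes did). All knockout libraries lay below all heterozygous libraries for 4 of the 5 genes, the exception being Dpysl4, whereas 20.2% of tested genes were separated in this direction. In RNA from sorted populations, fewer cells that express a gene and less RNA per cell cannot be told apart.

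**Figure D1:**
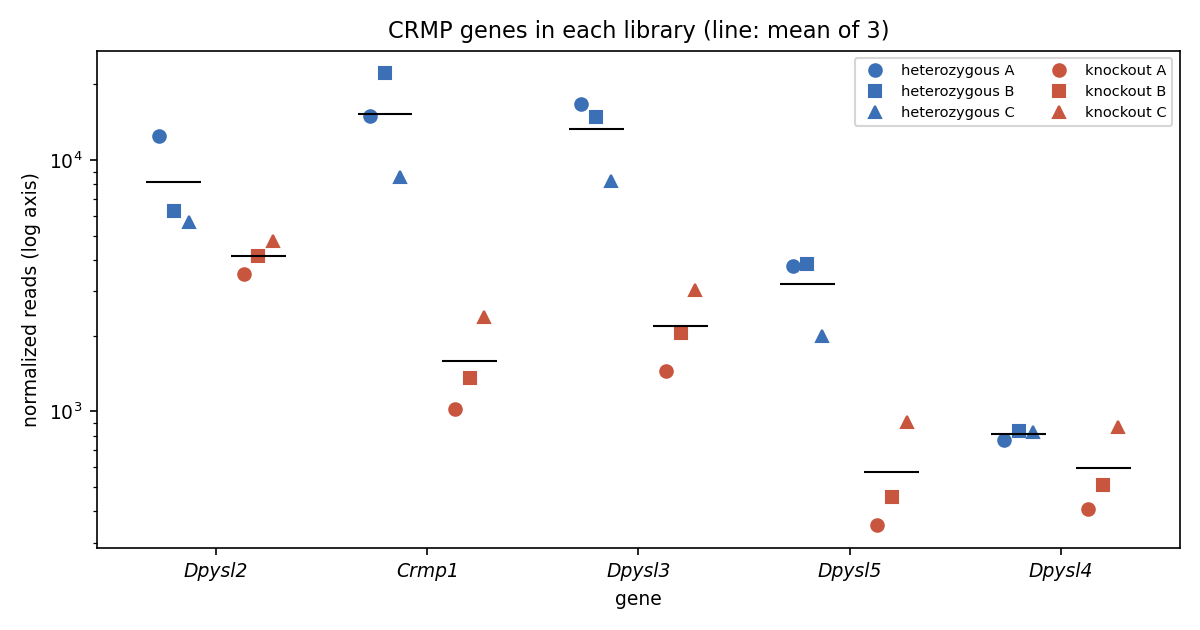
Normalized reads (log axis) of the 5 CRMP genes in each of the 6 libraries, heterozygous in blue and knockout in red, with the mean of 3 as a line. The groups are wide apart for Crmp1, Dpysl3 and Dpysl5, meet closely for Dpysl2 and overlap for Dpysl4.

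Libraries held 19798675 to 25982361 reads assigned to genes, and the members had between 321 and 22595 reads per library, so counting error was small beside the spread between pools. Of the targeted genes, E2f1 was at 1152, 1388 and 1030 normalized reads in heterozygous A, B and C and at 375, 483 and 516 in the knockout libraries (log2 difference -1.38 ± 0.22 SE, limma adjusted p = 0.00559). E2f3 was at 293, 205 and 253 against 324, 231 and 245 (0.09 ± 0.28, adjusted p = 0.845). Reads are summed over the whole gene, so an allele that lacks a part can still be counted and the E2f3 value does not check recombination.

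Crmp1 encodes the member through which semaphorin 3A signals to both microtubules and the actin-binding protein filamin. The gene (ENSMUSG00000029121, GRCm38 chromosome 5, 37241940 to 37292133, plus strand) stood at 14961, 22140 and 8601 normalized reads in heterozygous A, B and C. In knockout A, B and C it stood at 1020, 1354 and 2365. The lowest heterozygous library, C, remained well above the highest knockout library, also C. The means were 15234 ± 6774 and 1580 ± 700 (SD, n = 3 each), a log2 difference of -3.26 ± 0.38 (SE; 95% interval -4.11 to -2.41, limma adjusted p = 0.00141). Only 0.686% of tested genes had a more negative log2 difference. Evc overlaps Crmp1 on the opposite strand, and whether counting used strand is not given in the sources used here. Evc was at 696 ± 116 and 799 ± 187 normalized reads, far below Crmp1 in heterozygous cells but nearer to it in knockout cells, and was not called (log2 difference 0.19, adjusted p = 0.620).

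Dpysl3 encodes CRMP4, which bundles actin filaments. The gene (ENSMUSG00000024501, chromosome 18, 43320984 to 43438286, minus strand) had 16655, 14877 and 8277 normalized reads in heterozygous A, B and C and 1446, 2049 and 3040 in the knockout libraries. As with Crmp1, heterozygous C was the lowest of its group and knockout C the highest of its own, and the groups did not meet. The log2 difference was -2.61 ± 0.33 (95% interval -3.34 to -1.88, limma adjusted p = 0.00199), from 13270 ± 4414 to 2178 ± 805.

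Dpysl5 encodes CRMP5, the most divergent member in sequence, which counteracts the growth-promoting action of CRMP2 on dendrites. The gene (ENSMUSG00000029168, chromosome 5, 30711564 to 30799375, plus strand) was at 3774, 3845 and 1995 normalized reads in the heterozygous libraries and at 352, 455 and 911 in the knockout libraries. Again heterozygous C and knockout C were the closest libraries of opposite genotype, without overlap. The log2 difference was -2.54 ± 0.37 (95% interval -3.38 to -1.70, limma adjusted p = 0.00373), from 3205 ± 1048 to 573 ± 297. Crmp1, Dpysl3 and Dpysl5 were called lower under all 17 alternative analyses, with adjusted p of at most 0.0228, 0.0293 and 0.0407. The smallest share of all tested genes called lower in any of these was 2.58%, without heterozygous B.

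Promoter sequence is shown for Crmp1 and Dpysl5, which both fell and for which RefSeq start sites on GRCm38.p6 were matched (2 of the 5 genes). The stretches below lie on the plus strand of chromosome 5 and overlap no annotated exon of the gene. The first Crmp1 stretch, chr5:37241808-37241939, ends 118 bases before the upstream RefSeq start. The second, chr5:37245514-37245763, lies inside the gene, in an intron of the longer transcripts, and ends at the downstream start. The Dpysl5 stretch, chr5:30711314-30711563, ends at that gene's first start. Capitals mark GC boxes, the letters GGGCGG or their reverse complement.
Crmp1 upstream start: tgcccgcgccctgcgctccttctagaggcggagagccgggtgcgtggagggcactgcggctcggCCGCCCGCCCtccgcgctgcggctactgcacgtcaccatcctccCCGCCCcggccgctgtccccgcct
Crmp1 downstream start: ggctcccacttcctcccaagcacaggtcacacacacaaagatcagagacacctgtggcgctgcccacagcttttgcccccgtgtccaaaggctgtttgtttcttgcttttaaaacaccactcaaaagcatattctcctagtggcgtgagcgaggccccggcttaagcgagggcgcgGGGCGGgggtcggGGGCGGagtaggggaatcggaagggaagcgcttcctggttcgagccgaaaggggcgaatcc
Dpysl5 start: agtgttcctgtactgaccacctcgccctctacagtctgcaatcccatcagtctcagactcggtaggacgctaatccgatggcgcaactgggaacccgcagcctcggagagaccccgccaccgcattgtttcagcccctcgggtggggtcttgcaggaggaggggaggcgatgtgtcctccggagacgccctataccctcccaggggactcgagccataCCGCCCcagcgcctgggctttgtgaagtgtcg
None of the 3 windows of 300 bases from which these come (250 before and 50 after the start) held any of 4 E2F words, TTTCCCGC, TTTCGCGC, TTTGCCGC and TTTGGCGC, on either strand. At least 1 such word was in 2.26% of the 32851 windows in the table. GC boxes, searched after the sequences were seen and counted with overlaps, numbered 5, 2 and 1 in the 3 windows, and 35.7% of all windows held 1 or more. The upstream Crmp1 window had 41 CpG dinucleotides, more than 96.5% of windows. The other Crmp1 window and the Dpysl5 window had 20 and 19, against a median of 7.

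Dpysl2 encodes CRMP2, which binds tubulin dimers, promotes microtubule assembly and helps to specify the axon, and which is also made in glia. The gene (ENSMUSG00000022048, chromosome 14, 66802864 to 66868688, minus strand) had 12524, 6252 and 5664 normalized reads in heterozygous A, B and C and 3505, 4142 and 4752 in the knockout libraries. Heterozygous A stood at about double the other heterozygous libraries, and the gap between the groups, from 4752 to 5664, was small. The log2 difference was -0.89 ± 0.29 (95% interval -1.55 to -0.24, limma adjusted p = 0.0660), from 8147 ± 3802 to 4133 ± 624. The call depended on the analysis: adjusted p was 0.00866 in the authors' deposited table (log2 fold change -0.98), which called 6.83% of its 31628 adjusted rows lower. It was 0.0130 in DESeq2, which called 10.4% of genes lower, and 0.0618 in edgeR, which called 8.25%. Without heterozygous A the log2 difference was -0.54 (limma adjusted p = 0.160, with 3.18% of genes lower), and without knockout C it was -1.0 (limma adjusted p = 0.0395, with 11.3% lower).

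Dpysl4 encodes CRMP3, which acts on dendrite growth in the hippocampus. It was the member with the lowest level in heterozygous cells (ENSMUSG00000025478, chromosome 7, 139086001 to 139102704, plus strand). The heterozygous libraries held 766, 835 and 829 normalized reads, and the knockout libraries 409, 508 and 865. Knockout A and B were below every heterozygous library and knockout C above all of them. The log2 difference of -0.52 ± 0.28 did not pass (95% interval -1.15 to 0.11, limma adjusted p = 0.225), an interval that runs from a 2.22-fold fall to a small rise. Leaving out knockout C gave -0.83 (limma adjusted p = 0.0331, with the same 11.3% of genes lower).

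Knockout A was lowest and knockout C highest for all 5 members, an order held by 30.6% of tested genes. Heterozygous C was the lowest of its group for Crmp1, Dpysl2, Dpysl3 and Dpysl5.

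Ratios between members within a library do not depend on the size factor, and were used to ask whether the members moved by different amounts. The log2 ratio of Crmp1 to Dpysl2 was 0.26, 1.82 and 0.60 in heterozygous A, B and C and -1.78, -1.61 and -1.01 in the knockout libraries. In reads not scaled by length, Crmp1 thus exceeded Dpysl2 in every heterozygous library and was below it in every knockout library. The Dpysl2 to Dpysl3 ratio was -0.74 ± 0.45 in heterozygous and 0.98 ± 0.32 in knockout libraries (SD, n = 3 each), and the Dpysl4 to Dpysl5 ratio -1.92 ± 0.57 and 0.10 ± 0.15. Groups were separated in 8 of the 10 pairs. Each of these had an exact permutation p of 0.1 (two-sided), the smallest that 3 against 3 allows. After adjustment over the 10 pairs it was 0.125. The pairs share members and so are not independent, and the share of separated pairs among other genes was not measured.

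The overlapping pairs were Dpysl3 with Dpysl5 and Dpysl2 with Dpysl4. The Dpysl3 to Dpysl5 ratio was 2.05 ± 0.09 in heterozygous and 1.98 ± 0.22 in knockout libraries, a difference of -0.07 ± 0.14 (SE, exact permutation p = 0.8). Their profiles were also the nearest of any 2 members, with a root mean square difference of 0.143 between centred log2 profiles over the 6 libraries. For Dpysl2 and Dpysl4 the ratio differed by -0.38 ± 0.45 (exact permutation p = 0.6). The log2 ratios of Crmp1 to Dpysl3 and to Dpysl5 differed by -0.65 ± 0.23 and -0.71 ± 0.17, both without overlap.

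Levels of different genes were compared per kilobase of annotated exon. In heterozygous cells Crmp1, Dpysl3 and Dpysl2 had 2162 ± 961, 2008 ± 668 and 1802 ± 841 normalized reads per kilobase, which did not differ beyond their spread. Dpysl5 followed with 434 ± 142 and Dpysl4 with 135 ± 6.4. In knockout cells Dpysl2 led with 914 ± 138, ahead of Dpysl3 at 330 ± 122 and Crmp1 at 224 ± 99.4, a pair within their spread whose order turned with the length used (518 ± 229 for Crmp1 and 398 ± 147 for Dpysl3 per kilobase of the longest transcript). Dpysl4 and Dpysl5, at 99.3 ± 40.1 and 77.6 ± 40.3, were also within theirs. The family total was 8054, 7438 and 4135 in heterozygous A, B and C and 1255, 1565 and 2115 in the knockout libraries. The mean was 3.98-fold lower, or 4.82-fold lower per kilobase of the longest transcript.

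The make-up of the family changed with that total. Dpysl2 accounted for 34.4%, 18.6% and 30.3% of CRMP reads per kilobase in heterozygous A, B and C and for 61.8%, 58.5% and 49.7% in the knockout libraries. Crmp1 held 26.4%, 42.2% and 29.5% against 11.5%, 12.3% and 15.9%. Dpysl4 went from 2.27% ± 0.94 to 5.90% ± 0.81 although its own level did not rise, since a share also depends on the other members. Lengths matter here: with the longest transcript in place of all exons, Crmp1 led in heterozygous cells with 49.0% and Dpysl2 held 18.5%, while Dpysl2 still led in knockout cells with 45.2%, ahead of Crmp1 at 24.2%.

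**Figure D2:**
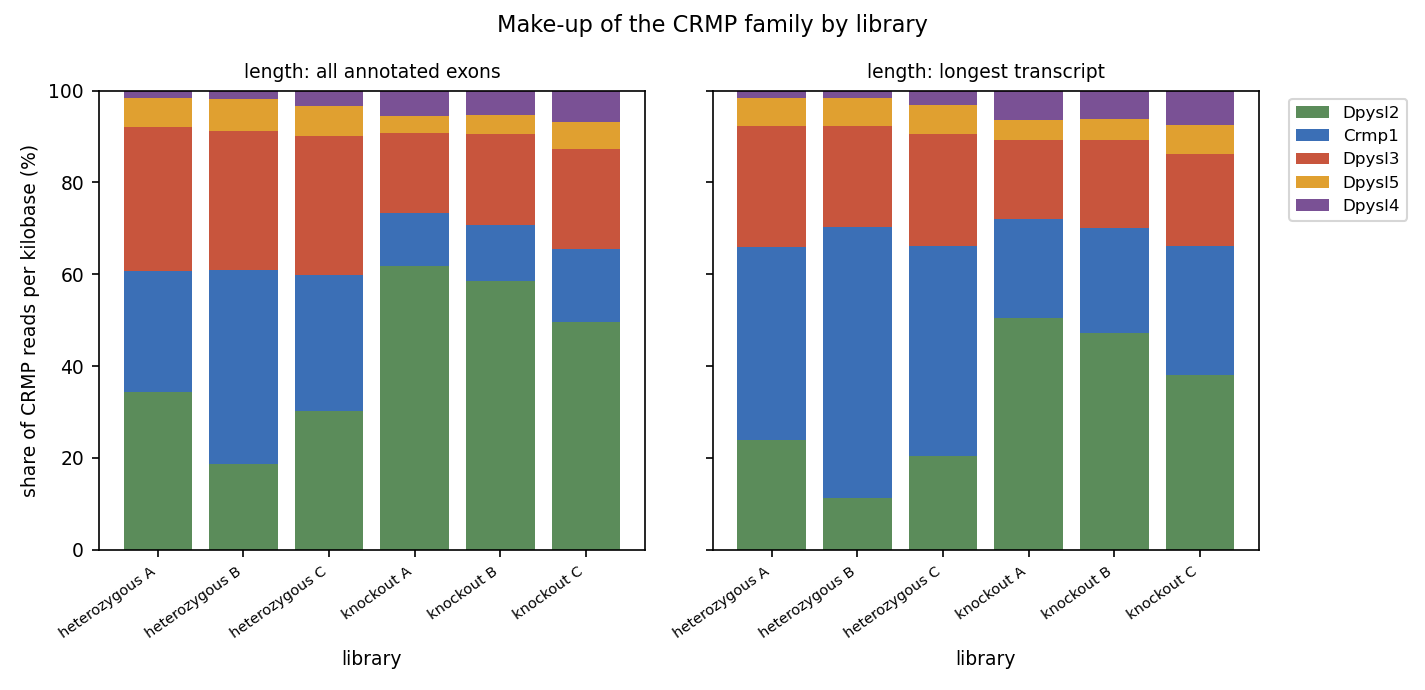
Share (%) of each CRMP gene in the family's normalized reads per kilobase, one bar per library, with the length taken from all annotated exons (left) or from the longest transcript (right). With either length the Dpysl2 part is larger in all 3 knockout libraries than in any heterozygous library, and the Crmp1 part is smaller.

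Markers of the cell types that the sorted population could hold were measured beside the CRMPs. All 12 neuroblast markers fell (11 with upper-quartile scaling, without limma's trend, or without knockout B or any single heterozygous library). Their mean log2 level was 12.75, 12.83 and 12.14 in heterozygous A, B and C against 9.43, 9.39 and 9.94 in the knockout libraries. Summed, they ranged from 65573 to 108085 and from 12759 to 16122 normalized reads, with none at 0. Dlx1, an interneuron transcription factor and the marker of this list with the highest mean, fell from 15157 ± 4987 to 1913 ± 693 (limma adjusted p = 0.00101). Of 8 markers of activated stem and transit-amplifying cells 4 fell (3 to 5 over the alternatives). Of 9 quiescent stem cell and astrocyte markers 2 rose (0 without heterozygous B, 1 if heterozygous A or knockout B is left out, 4 without knockout A, 5 with DESeq2, 7 with voom quality weights and 1 without limma's trend). Of all tested genes 8.59% fell and 7.23% rose in the main test. Those that rose numbered 1318 there, 166 without heterozygous B, 323 without heterozygous A, 111 without knockout B and 911 without knockout A. They numbered 2318 with DESeq2, 3493 with voom and 317 without the trend.

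Levels relative to the neuroblast list were added after the data were seen. On this scale 93.6% of all tested genes were higher in every knockout library than in every heterozygous one, since the list itself fell, and Dpysl2 and Dpysl4 were among them while Crmp1, Dpysl3 and Dpysl5 overlapped between genotypes. The log2 level of Crmp1 minus that of the list was 1.12, 1.61 and 0.93 in heterozygous A, B and C and 0.57, 1.01 and 1.27 in the knockout libraries. For Dpysl3 it was 1.06 ± 0.20 and 1.44 ± 0.32, and for Dpysl5 -0.99 ± 0.16 and -0.54 ± 0.43 (SD, n = 3). For Dpysl2 it was 0.86, -0.22 and 0.33 in heterozygous and 2.35, 2.62 and 2.28 in knockout libraries, and for Dpysl4 -2.91 ± 0.41 and -0.44 ± 0.29, as for most genes. The part of neuroblast number in the fall of the CRMPs was not tested.

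Markers of other cells moved the opposite way in some libraries. Ependymal markers were at a mean log2 level of 10.67, 10.50 and 10.54 in heterozygous and 13.10, 12.41 and 11.06 in knockout libraries, so that knockout A was highest for these and lowest for every CRMP. Their sum ranged from 10402 to 11449 and from 14968 to 61742 normalized reads, and 5 of 6 were higher. That count was 6 without knockout C, at most 2 when any other single library was left out, and 0 without the trend. Endothelial and mural markers had the same order among knockout libraries (11.66, 10.63 and 9.56; sums of 5157 to 7572 and 7573 to 24809), with 1 of 6 higher (4 with DESeq2, 3 with voom, 6 without knockout C, and 0 without the trend or if knockout B or either of heterozygous A and B is left out). Oligodendrocyte markers, of which 0 of 7 were called (4 with voom, and 1 with DESeq2, with upper-quartile scaling, with a mean of at least 50 or without heterozygous C), summed to 47403 to 69154 and 74271 to 92497, and were above 0 in all libraries. Oligodendrocyte precursor and microglial sums overlapped between genotypes, with 0 of 5 (2 without heterozygous C) and 0 of 6 called. The precursor list was highest in the C library of each genotype. Its mean log2 level was 8.54, 8.28 and 10.85 in heterozygous A, B and C and 9.21, 9.02 and 10.35 in the knockout libraries. Of 6 tested mature neuron markers 4 fell and 2 rose. If knockout B or either of heterozygous A and B is left out, 1 fell and at most 1 rose. Without the trend 2 fell and 1 rose. Over all 7 markers, with Drd1, the mean log2 level was 7.62, 6.85 and 7.37 in heterozygous A, B and C. In the knockout libraries it was lower throughout, at 6.29, 5.77 and 6.49. The sums overlapped (2691 to 3655 in heterozygous and 2830 to 3431 in knockout libraries). Drd1 was at 0 in heterozygous B and knockout B and C. Calls over all tested genes also varied with these settings. In the main test 1565 fell and 1318 rose, without the trend 719 and 317, and with voom 3288 and 3493. With 1 library left out, 470 (without heterozygous B) to 2057 (without knockout C) fell. Those that rose then numbered 111 (without knockout B) to 1964 (without knockout C). What the cells of these lists contributed to Dpysl2 or the other members was not tested.

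**Figure D3:**
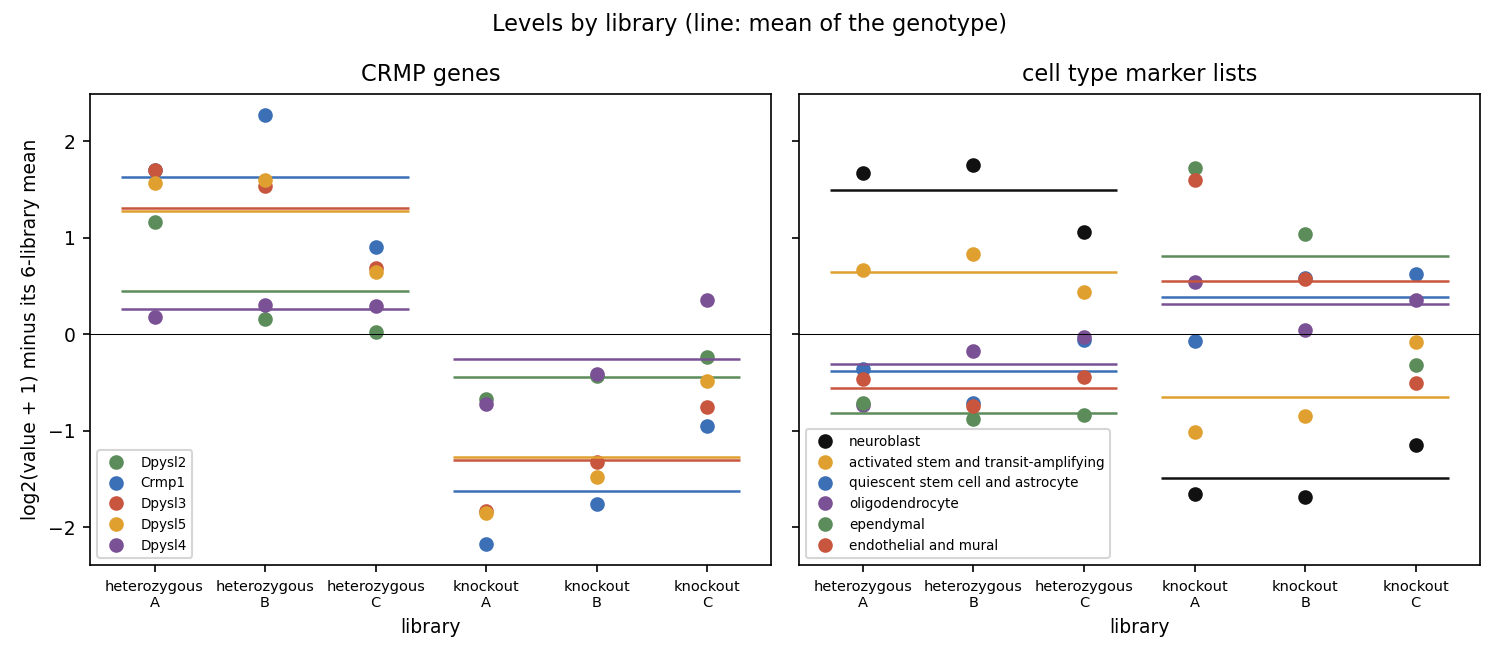
Left, log2(value + 1) of each CRMP gene in each library minus its own mean over the 6 libraries. Right, the same for the mean level of 6 marker lists, with a line for the mean of each genotype. Crmp1, Dpysl3, Dpysl5 and the neuroblast list have the widest gaps downward in knockout libraries, and the ependymal list lies highest in knockout A.

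Other genes of the CRMP pathway were taken from a list of 45 genes by role, of which 42 were tested. In knockout cells 10 fell and 2 rose, 23.8% and 4.76% of those tested, against 8.59% and 7.23% of all tested genes. The median log2 difference was -0.25, against 0.05 for all tested genes. Knockout libraries were all lower for 19 of the 42 and all higher for 3 (20.2% and 18.5% of all tested genes).

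**Figure D4:**
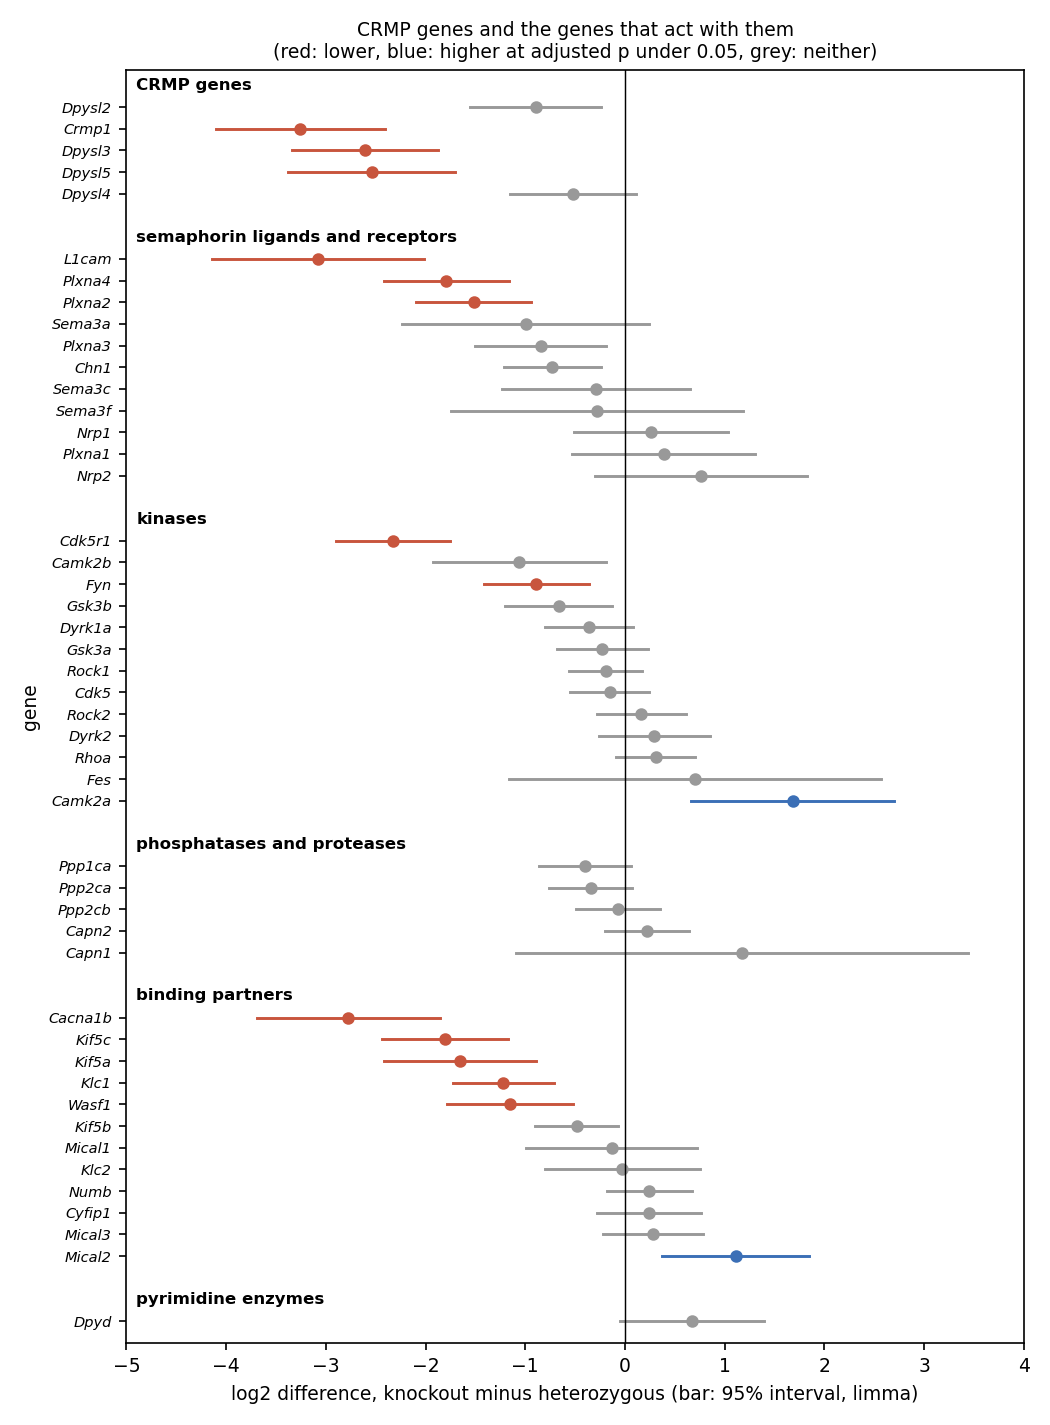
Log2 difference, knockout minus heterozygous, with its 95% interval from limma, for the 5 CRMP genes and the 42 tested pathway genes by role. Red marks genes called lower and blue genes called higher at an adjusted p under 0.05, and grey the rest, among which are Dpysl2 and Dpysl4.

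Among semaphorin 3 ligands and receptors 3 of 11 fell. L1cam, a cell adhesion molecule that joins the neuropilin receptor complex, was at 615, 646 and 483 normalized reads in heterozygous and 143, 64.1 and 33.4 in knockout libraries (8.43-fold lower, limma adjusted p = 0.00464). Its order among knockout libraries was the reverse of that of the CRMPs. The plexin co-receptor genes Plxna4 and Plxna2 fell 3.46-fold and 2.87-fold. No ligand gene (Sema3a, Sema3c, Sema3f) and neither neuropilin gene passed the test. Chn1, a Rac-inactivating protein that binds CRMPs, had the smallest p of the rest (log2 difference -0.73 ± 0.22, adjusted p = 0.0506).

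Of 13 tested genes for kinases and their activators 2 fell and 1 rose. Cdk5r1, which encodes p35, one of the activators that Cdk5 needs, fell from 1505, 1518 and 1251 to 222, 257 and 391 normalized reads (5.03-fold, limma adjusted p = 0.00120). Cdk5 itself was at 2661 ± 350 and 2381 ± 162 (log2 difference -0.15 ± 0.18, adjusted p = 0.575). Fyn, a tyrosine kinase of the semaphorin pathway, fell 1.85-fold, and Camk2a, a calcium-dependent kinase also among the mature neuron markers, rose 3.21-fold from 72.6 ± 32.3 to 224 ± 68.4. Gsk3b, a principal CRMP2 kinase and the uncalled gene of smallest p here, had a log2 difference of -0.66 ± 0.24 (adjusted p = 0.0868), and Rock1 and Rock2, which phosphorylate CRMPs downstream of RhoA, -0.19 and 0.17. The call of Fyn was lost when heterozygous A or B or knockout A or B was left out, and that of Camk2a when heterozygous A or B or knockout B or C was.

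The binding partners held 5 genes that fell and 1 that rose among 12. Cacna1b, the N-type calcium channel that CRMP2 binds, fell 6.85-fold, from 358, 221 and 166 to 34.0, 27.6 and 40.5 normalized reads (limma adjusted p = 0.00375). Of the kinesin-1 genes, whose motor carries CRMP2 with its cargo, Kif5c fell 3.50-fold, Kif5a 3.15-fold and the light chain gene Klc1 2.33-fold. Kif5b, the widely expressed heavy chain gene, had a log2 difference of -0.48 ± 0.18 (adjusted p = 0.101), and Klc2 -0.02. Wasf1, an actin regulator of the WAVE complex, fell 2.22-fold, and Mical2, an actin-oxidizing enzyme of the MICAL family, rose 2.16-fold. The call of Kif5a was lost when heterozygous A or B or knockout B was left out, and those of Wasf1 and Mical2 when any of these or knockout A was. Mical2 was called in only 8 of 17 alternatives, and not by edgeR, after TMM rescaling or with no filter. Without limma's trend none of Kif5a, Klc1, Wasf1, Mical2, Fyn and Camk2a was called.

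None of the 5 phosphatase and protease genes passed limma, and 0 had an unadjusted p under 0.05. Ppp1ca, a catalytic subunit of protein phosphatase 1, had the smallest p (log2 difference -0.40 ± 0.21, adjusted p = 0.203). Dpys, the enzyme the CRMPs resemble, and Upb1 were under the filter, at 4.92 and 5.27 mean normalized reads in heterozygous and 4.19 and 13.3 in knockout libraries. Dpyd, the first enzyme of pyrimidine degradation, had a log2 difference of 0.67 ± 0.32 (adjusted p = 0.177).

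Profiles most like each member were sought among 14130 other genes with a mean of at least 50, by the root mean square difference of centred log2 profiles over the 6 libraries, as a description with no test. Nearest to Crmp1 were Kif2c (0.112), Tiam2 (0.141) and Sp9 (0.149). Kif2c stood at 2560, 3334 and 1486 normalized reads in heterozygous A, B and C and at 185, 257 and 378 in the knockout libraries, the same order of libraries as Crmp1. Dpysl3 was nearest to Hmmr (0.107), Atcay (0.131) and Cenpe (0.131), and Dpysl5 to Myt1 (0.109), Nek2 (0.113) and Gprin1 (0.119). These 9 genes all fell, by 5.32-fold to 11.1-fold, which follows from choosing them by likeness to members that fell. The genes nearest to Dpysl2 were Gm15594 (0.123), Clcn5 (0.133) and Ppm1l (0.137), all highest in heterozygous A. Those nearest to Dpysl4 were Dleu7 (0.10), Pak1 (0.105) and Syp (0.106). None of these 6 was called, which the same choice by likeness favours.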

How the data were processed

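Whole-transcriptome libraries of sorted cells, 3 per genotype, were made from at least 35 ng of RNA and at least 200000 cells. HISAT2, featureCounts from Subread and DESeq2 on GRCm38 are named in the submitters' processing notes, with versions not given in the sources used here. The deposited expression table holds a normalized signal, in which each column is a read count divided by 1 size factor (100% of values above 0 were whole multiples of 1 step, within 0.001 reads). The authors' log2 fold changes, p-values and scores (Wald statistic, weight) come from their deposited table, per the file headers. The main test (R 4.3.3, limma 3.58.1 with its trend option) used log2(value + 1), genotype as the only term, two-sided, with Benjamini-Hochberg adjustment over 18227 rows with a mean of at least 10. Fold changes are on that log2(value + 1) scale. edgeR 4.0.16 and DESeq2 1.42.0 ran on the recovered reads as alternatives, and methods were tested on simulated data. No pair of libraries agreed within counting error (the smallest chi-square over its degrees of freedom was 42.2), and each was taken as 1 sample. This check cannot tell libraries made from the same pool of mice from libraries of different pools. Nothing beyond the design text, which calls them biological replicates, says that pools shared no mice.

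The members and gene lists were chosen with earlier results of these data known, so they are no independent evidence. Genes were named by rule: all members, E2f1 and E2f3, called pathway genes and the uncalled one of smallest p per role, 3 genes of most like profile per member, and the marker of highest mean of each list where given. Evc, Sema3a, Sema3c, Sema3f, Cdk5, Rock1, Rock2, Klc2, Dpys, Upb1 and Drd1 were added after their values were seen. Exon lengths and coordinates came from GENCODE M21 on GRCm38, start sites and promoter sequence from RefSeq on GRCm38.p6. Figures were drawn with matplotlib 3.10.9.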

Additional observations from a re-analysis of the deposited data

How the results depend on the processing

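Crmp1, Dpysl3 and Dpysl5 kept their direction and call under all 17 alternatives (log2 differences from -3.62 to -2.93, -2.92 to -2.35 and -2.94 to -2.25, which are also the ranges when 1 library is left out). Dpysl2 kept its direction in all 17 and passed in 3: DESeq2 (-0.98, adjusted p = 0.0130), voom with quality weights (-1.13, adjusted p = 0.00693) and without knockout C, with -1.11 to -0.54 when 1 library was left out. Dpysl4 passed in 2: voom (-0.55, adjusted p = 0.0451) and without knockout C (-0.83), with a range of -0.83 to -0.29. Members called lower were 5 with voom and 3 to 5 with 1 library left out. Genes called lower over all tested numbered 719 without the trend and 3288 with voom, and 470 (without heterozygous B) to 2057 (without knockout C) with 1 library left out, with 579 without heterozygous A and 590 without knockout B. Those higher numbered 317 and 3493 in the same order, 2318 with DESeq2 and 111 (without knockout B) to 1964 (without knockout C). In the pathway list 6 fell without the trend, 16 with voom and 7 to 12 with 1 library left out. Genes of that list that rose numbered 1 with edgeR under either scaling, with TMM rescaling and with no filter, 0 without the trend, and 0 to 2 with 1 library left out. The causes were not tested.

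Over all tested genes, libraries of the same letter did not deviate together (correlations of -0.07, 0.02 and -0.10 for A, B and C), so the letters are not taken to pair them. The oligodendrocyte precursor list was nevertheless highest in the C library of each genotype. With the replicate block 1205 genes fell and 1105 rose, and the same 3 members were called (log2 differences -3.26, -2.61 and -2.54, adjusted p = 0.00105, 0.00190 and 0.00368). In the pathway list 9 fell and 2 rose with it, Fyn being the gene no longer called. Ratios between members with a pseudocount of 0 kept their direction in all 10 pairs. Depth limited no member (at least 321 reads per library), whereas the number of pools, 3 per genotype, limits the precision.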
